A study of Homo sapiens with 10 samples.

Results

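C6orf132, CHODL, MEST, RSPO4, RASGEF1A and EEF1A2 are 6 of the 13920 genes counted in spheroids labelled T47D, and they were selected on these counts: clone A1, a SAMHD1-KO clone, held less of their mRNA than wild-type (WT) cells in experiments 10 and 11, while in experiments 15 and 16 that fall was absent, smaller or reversed. The study compared WT cells with 2 knock-out clones, A1 and A2, made by CRISPR-Cas9 editing of SAMHD1 at its HD domain, and sequenced RNA on day 4 of spheroid culture. WT and clone A1 were each sequenced in experiments 10, 11, 15 and 16 (4 libraries each) and clone A2 only in experiments 15 and 16 (2 libraries). All 10 libraries share the cell line label, the low-adherence plates and the culture time, none carries a drug treatment in its labels, and each knock-out is a single clone, so that a clone and the loss of SAMHD1 cannot be told apart within it. The study's methods describe biological duplicates of 2 knock-out clones, counted there as 4 replicates of the knock-out. The labels hold 6 knock-out libraries and add only the experiment number, and the mismatch is not explained.

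The libraries held 40077369 to 51311482 counts, and levels are given as CPM, counts scaled to the size of the library with TMM factors. SAMHD1, the dNTP triphosphohydrolase that the editing targeted, was lower in each of the 6 knock-out libraries than in each of the 4 WT libraries. Its level was 53.9, 55.7, 49.8 and 56.4 CPM in WT of experiments 10, 11, 15 and 16, then 22.5, 23.0, 6.44 and 6.15 CPM in clone A1, and 23.6 and 20.2 CPM in clone A2 of experiments 15 and 16. The level of SAMHD1 in clone A1 of experiments 10 and 11 was thus near that of clone A2 and over 3 times that of clone A1 in experiments 15 and 16. On this gene alone the libraries labelled clone A1 in experiments 10 and 11 resembled clone A2 more than the later libraries of their own label. Whether the clone label of experiments 10 and 11 is right was not tested. Of the 6 genes only RSPO4 was likewise near clone A2 there, at 2 to 4 reads per library. Its log2 difference between clone A2 and clone A1 of experiments 10 and 11 was −0.14. That difference was 4.62 in C6orf132, 3.05 in RASGEF1A, 2.41 in MEST, 2.17 in CHODL and 0.96 in EEF1A2. These differences cross the experiment pairs, between which WT itself shifted by up to 1.25 (RASGEF1A). They also use values of the choice and were not tested. Against WT of the same experiments RSPO4 lay at −1.27 in that clone A1 and at −2.25 in clone A2. Clone A1 below means the clone given in the labels.

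The cell line label was set against its markers, and part of them were low or not listed. T47D is a luminal breast cancer line known for its estrogen and progesterone receptors and its epithelial adhesion molecules. Of 16 luminal markers, 11 were in the table, and KRT19, TFF1, AGR2 and SPDEF were among those not listed. ESR1, the estrogen receptor, lay at 0.183 to 1.59 CPM over the 10 libraries, EPCAM at 0.348 to 1.78, CDH1 (E-cadherin) at 0.684 to 2.16 and KRT8 at 3.10 to 9.07 CPM. PGR lay at 15.4 to 20.7 CPM, GATA3 at 15.4 to 24.8, FOXA1 at 14.1 to 26.8 and KRT18 at 36.3 to 60.3 CPM, whereas VIM, the intermediate filament of mesenchymal cells, reached 1175 to 1518 CPM in all groups. These levels go against the usual profile of the labelled line, in WT as in the clones, and the cause was not tested. KRT8 was called lower in each comparison of a clone with WT, with log2 fold changes of −0.94 ± 0.16 in clone A1 of experiments 10 and 11 (SE, edgeR adjusted p = 0.0437), −0.70 ± 0.17 in clone A1 of experiments 15 and 16 (edgeR adjusted p = 0.0116). Clone A2 gave −0.98 ± 0.17 for it (edgeR adjusted p = 6.64e-04). The listed luminal markers did not move one way: 1 of 11 was called lower in clone A1 of experiments 10 and 11 (0.0862% of all genes), 2 higher and 2 lower in clone A1 of experiments 15 and 16 (6.44% and 6.74%), and 1 higher and 2 lower in clone A2 (9.75% and 11.4%). FOXA1 was higher in clone A1 of experiments 15 and 16 (0.47) and in clone A2 (0.31), XBP1 was higher in that clone A1 (0.28) and lower in clone A2 (−0.28), and KRT18 was lower in that clone A1 (−0.28), all as log2 fold changes. The summed luminal markers spanned 169 to 178 CPM in WT, 157 to 166 in clone A1 of experiments 10 and 11, 174 to 176 in clone A1 of experiments 15 and 16 and close to 150 CPM (149.6 and 149.9) in clone A2. Of the markers of other cells, 3 of 7 basal genes (39.2 to 74.6 CPM in sum), 4 of 10 fibroblast genes (1194 to 1547 CPM, nearly all VIM), 4 of 12 immune genes (3.11 to 4.14 CPM) and 2 of 6 endothelial genes (0.975 to 1.92 CPM) were listed. Within the fibroblast list COL3A1 moved with the groups, from 17.9, 15.3, 9.75 and 8.46 CPM in WT of experiments 10, 11, 15 and 16 to 12.7, 12.0, 2.76 and 2.98 CPM in clone A1 and 1.66 and 2.38 CPM in clone A2. Its log2 fold change was −2.16 ± 0.17 in clone A2 (SE, edgeR adjusted p = 1.13e-06) and −1.66 ± 0.17 in clone A1 of experiments 15 and 16 (edgeR adjusted p = 2.23e-05), and the clone A1 effect differed between the pairs by −1.23 ± 0.18 (edgeR adjusted p = 0.00184). COL1A1, PDGFRA and VIM, the other listed genes of that list, passed no test, and their differences between the pairs were positive, at 0.51, 0.53 and 0.16. In clone A1 of experiments 15 and 16 edgeR also called 1 basal marker lower, ACTA2 (−0.34 ± 0.08, SE, adjusted p = 0.0147), and 1 immune marker, CD14 (−1.37 ± 0.43, adjusted p = 0.0467), and neither was called in another comparison. CD14 lay at only 0.206 to 0.816 CPM over the 10 libraries, and DESeq2 called 0 immune markers in that comparison. KRT5, KRT14, TP63, PTPRC, PECAM1, DCN and LUM, which define those cells, were not listed, and a gene with a count of 0 in any library had been removed. Their part in the results below was not tested, and in such bulk samples fewer cells of a type and less RNA per cell cannot be told apart.

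The 6 genes belong to different processes. RSPO4 is a secreted R-spondin, one of the proteins that raise Wnt signalling by binding LGR receptors and drawing the ubiquitin ligases ZNRF3 and RNF43 away from Frizzled. CHODL encodes chondrolectin, a membrane protein with a C-type lectin domain best known from muscle and motor neurons. MEST is an imprinted gene expressed from the paternal copy and encodes an alpha/beta hydrolase of the endoplasmic reticulum. RASGEF1A encodes a guanine nucleotide exchange factor that loads small GTPases of the Ras family with GTP, EEF1A2 encodes the tissue-restricted form of the elongation factor that brings aminoacyl-tRNA to the ribosome, and the protein of C6orf132 is little characterised.

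The genes lie apart in the genome (GRCh38, NCBI annotation): C6orf132 at chr6:42101119-42142620 on the minus strand, CHODL at chr21:17917340-18267370 on the plus strand, MEST at chr7:130486175-130506465 on the plus strand, RSPO4 at chr20:958452-1002311 on the minus strand, RASGEF1A at chr10:43194535-43267065 on the minus strand and EEF1A2 at chr20:63488014-63499083 on the minus strand. RSPO4 and EEF1A2 share chromosome 20 but sit at its opposite ends. Promoter sequences from RefSeq (GRCh38.p14) were at hand for 4 of the 6 genes, with 9 start sites in all, and none for RASGEF1A and EEF1A2. The 250 bases before the start are printed for the 3 of these genes whose difference between clone A1 and WT changed most between the experiment pairs, so that their base composition can be compared. Capitals mark GGGCGG (the GC box), CACGTG (the E-box) and GGTCA (the core of nuclear receptor sites) on either strand, so that CCGCCC and TGACC are matches on the other strand.
C6orf132, chr6:42142621-42142870, minus strand: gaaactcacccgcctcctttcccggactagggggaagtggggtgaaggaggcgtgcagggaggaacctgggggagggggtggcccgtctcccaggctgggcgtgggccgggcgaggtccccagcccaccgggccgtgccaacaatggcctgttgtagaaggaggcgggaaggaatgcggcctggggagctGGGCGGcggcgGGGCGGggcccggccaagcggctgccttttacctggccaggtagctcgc
CHODL, chr21:18244583-18244832, plus strand: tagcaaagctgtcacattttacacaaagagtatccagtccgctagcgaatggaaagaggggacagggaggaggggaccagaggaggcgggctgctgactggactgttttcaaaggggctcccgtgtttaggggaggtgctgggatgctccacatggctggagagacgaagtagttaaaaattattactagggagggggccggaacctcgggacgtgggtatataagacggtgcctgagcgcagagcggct
RSPO4, chr20:1002312-1002561, minus strand: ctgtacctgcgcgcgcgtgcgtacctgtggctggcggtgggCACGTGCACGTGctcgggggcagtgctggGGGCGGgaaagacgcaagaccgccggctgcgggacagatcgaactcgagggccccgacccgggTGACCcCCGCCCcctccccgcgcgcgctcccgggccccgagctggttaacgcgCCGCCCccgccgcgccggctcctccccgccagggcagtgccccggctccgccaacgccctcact

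The 3 promoters were unlike each other in composition. That of C6orf132 held 18 CpG and 71.6% GC with 2 GC boxes, that of RSPO4 36 CpG and 77.2% GC with 3 GC boxes, 2 adjoining E-boxes and 1 GGTCA, and that of CHODL 11 CpG and 55.2% GC with none of the 6 motifs searched. Over 35116 promoters of the same length the median was 11 CpG and 58% GC, and the RSPO4 promoter stood at the 95.1 percentile for CpG. GGGCGG was found in 42.6% of all promoters, GGTCA in 32.6%, CCAAT in 32.0%, TATAAA in 10.7%, TGANTCA in 6.57% and CACGTG in 6.34%. The palindrome CACGTG is counted once where it occurs, and in the printed sequences no match overlaps another. The other start of CHODL, at chr21:18245625-18245874, held 10 CpG, 1 GGGCGG and 2 GGTCA, and the 5 starts of MEST held 9 to 20 CpG. A match describes letters and is not evidence of binding.

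In experiments 10 and 11 clone A1 lay below WT without overlap in all 6 genes, which is how they were chosen; 19.4% of all genes had that order. In experiments 15 and 16 clone A1 lay above WT without overlap in 5 of them (27.4% of all genes) and below it in CHODL. Both orders together were seen in 4.66% of all genes. Since the choice used these values of clone A1 and WT, they are given as a description with no test. Clone A2 lay above WT without overlap in 3 (31.0% of all genes), below it in 2 (29.7%) and on both sides of it in MEST. Clone A2 was not used in the choice, and its calls against WT differed in direction among the 6 genes. In edgeR's quasi-likelihood test over all genes, clone A2 was higher than WT in RASGEF1A and EEF1A2 (2 of 6, where 9.75% of all genes were called higher), lower in CHODL and RSPO4 (2 of 6, against 11.4%) and past the threshold in neither direction in C6orf132 and MEST. These tests share the WT libraries of experiments 15 and 16 with the choice of the genes.

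**Figure D1:**
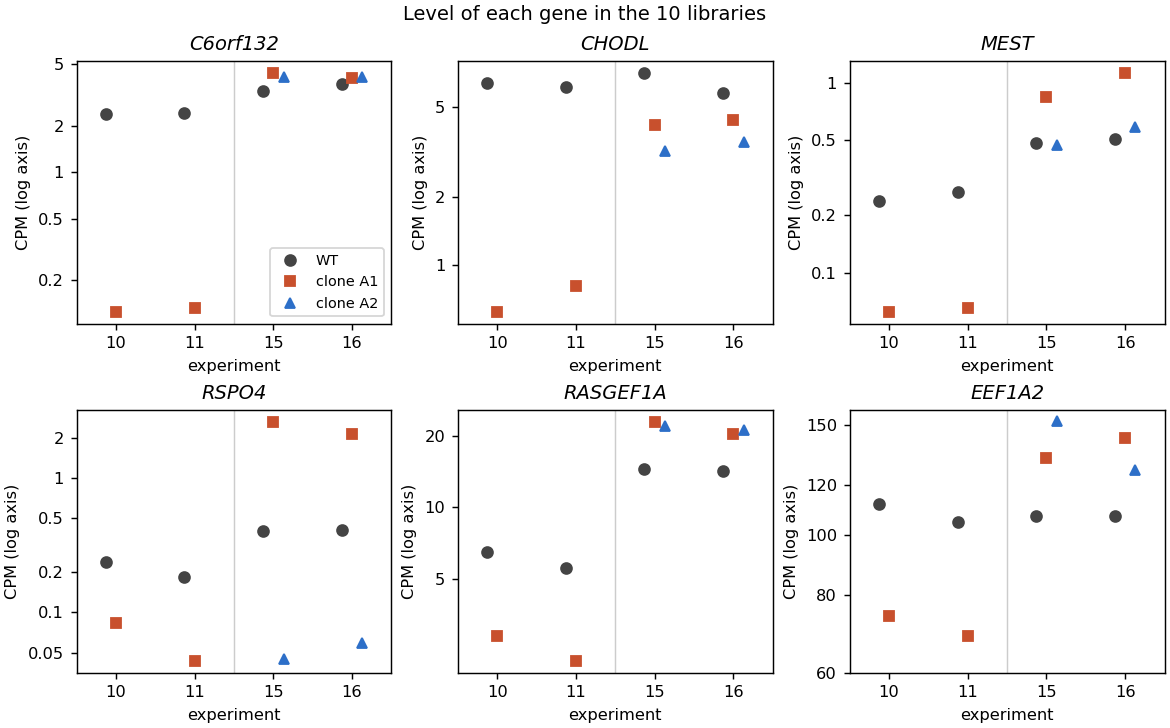
Level of the 6 genes in each of the 10 libraries, in CPM on a log axis, by experiment, with WT as circles, clone A1 as squares and clone A2 as triangles. Clone A1 lies below WT in experiments 10 and 11 in every panel, and in experiments 15 and 16 it lies above WT in every panel but CHODL, while clone A2 lies far below both in RSPO4.

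RSPO4, the R-spondin, was the gene in which the clones stood farthest apart. WT held 0.239, 0.184, 0.403 and 0.409 CPM in experiments 10, 11, 15 and 16, from 11, 9, 16 and 21 reads. Clone A1 held 0.0829 and 0.0435 CPM (4 and 2 reads) in experiments 10 and 11, then 2.60 and 2.13 CPM (114 and 93 reads) in experiments 15 and 16. Clone A2 held 0.0449 and 0.0586 CPM (2 and 3 reads). Clone A1 thus had the lowest level of its 4 libraries in experiments 10 and 11 and the highest of any library in experiments 15 and 16, and clone A2 sat at the level of the libraries labelled clone A1 in experiments 10 and 11. Scaled for library size, the summed counts of clone A1 were 0.303 times those of WT in experiments 10 and 11 (95% exact interval 0.0996 to 0.782, from 6 and 20 reads) and 5.83 times in experiments 15 and 16 (4.09 to 8.51, from 207 and 37 reads). The same ratio of clone A2 to WT was 0.128 (0.0394 to 0.327, from 5 and 37 reads). The fitted log2 fold change of clone A2 against WT was −2.90 ± 0.55 (SE, edgeR adjusted p = 0.00156) and against clone A1 −5.44 ± 0.42 (edgeR adjusted p = 9.12e-07, in a test that uses clone A1 values of the choice), both resting on 2 and 3 reads in clone A2. By counts, clone A1 of experiments 15 and 16 held 45.4 times the RSPO4 of clone A2 (19.1 to 141). Clone A1 of experiments 10 and 11 and clone A2 held 6 and 5 reads, a ratio of 1.22 with an interval of 0.310 to 5.06, so that no difference was detectable at this depth. RSPO4 was therefore not low in clone A1 alone. The intervals cover counting error only.

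CHODL, chondrolectin, was the one gene of the 6 in which clone A1 lay below WT in all 4 experiments. WT held 6.38, 6.14, 7.08 and 5.77 CPM, and clone A1 0.622 and 0.805 CPM in experiments 10 and 11 (30 and 37 reads). In experiments 15 and 16 clone A1 held 4.16 and 4.38 CPM and clone A2 3.21 and 3.49 CPM. Clone A1 was at 11.4% of the WT mean in the first pair of experiments and at 66.5% in the second, and clone A2 was at 52.1%. On the log2 CPM scale the differences between clone A1 and WT were −3.27, −2.87, −0.76 and −0.39 in the order of the experiments. Clone A2 was lower than WT, with a log2 fold change of −0.93 ± 0.15 (SE, edgeR adjusted p = 4.36e-04), and lay −0.35 ± 0.16 from clone A1, which missed the threshold (edgeR adjusted p = 0.229). WT itself differed between the pairs of experiments by less than its spread, with means of 6.26 ± 0.17 and 6.43 ± 0.93 CPM (SD, n = 2 each).

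MEST, the imprinted hydrolase, was counted at few reads in every group. WT held 0.239, 0.265, 0.479 and 0.507 CPM, from 11, 13, 19 and 26 reads. Clone A1 held 0.0622 and 0.0653 CPM in experiments 10 and 11, 3 reads in each library, and 0.845 and 1.12 CPM in experiments 15 and 16, from 37 and 49 reads. Clone A2 held 0.471 and 0.586 CPM (21 and 30 reads), on both sides of the WT values. The ratio of clone A1 to WT was 0.252 (95% exact interval 0.0844 to 0.634) in experiments 10 and 11 and 1.99 (1.37 to 2.92) in experiments 15 and 16. Clone A2 did not pass the test against WT, with a log2 fold change of 0.10 ± 0.36 (SE, edgeR adjusted p = 0.878), nor against clone A1, with −0.89 ± 0.33 (edgeR adjusted p = 0.133). In WT the mean was 0.252 ± 0.019 CPM in the first pair of experiments and 0.493 ± 0.020 CPM in the second (SD, n = 2 each). MEST overlaps COPG2, a coat protein gene on the other strand that was also counted, and the antisense gene MESTIT1, which was not listed; the library kit keeps strand, but whether the counting used it is not given in the sources used here, so reads of the shared stretch are uncertain.

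RASGEF1A, the exchange factor, differed between the pairs of experiments in WT too, and more so in clone A1. WT held 6.49 and 5.55 CPM in experiments 10 and 11 and 14.4 and 14.2 CPM in experiments 15 and 16, a log2 difference of 1.25 within WT. Clone A1 held 2.88 and 2.26 CPM and then 22.8 and 20.3 CPM, and clone A2 held 22.0 and 21.0 CPM. Clone A1 was at 42.7% of the WT mean in the first pair of experiments and at 151% in the second, where clone A2 was at 150.4%. The log2 fold change of clone A2 against WT was 0.59 ± 0.09 (SE, edgeR adjusted p = 2.20e-04). Between the clones it was −0.0057 ± 0.085, which missed the threshold (edgeR adjusted p = 0.982).

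EEF1A2, the elongation factor, had the most reads and the smallest change of the 6. WT held 112, 105, 107 and 107 CPM, close to each other in all 4 experiments. Clone A1 held 74.1 and 68.7 CPM in experiments 10 and 11 and 133 and 143 CPM in experiments 15 and 16, and clone A2 held 152 and 127 CPM. Clone A1 went from 65.9% to 129% of the WT mean, and clone A2 stood at 130.3%. Clone A2 was higher than WT, with a log2 fold change of 0.38 ± 0.08 (SE, edgeR adjusted p = 0.00236), and lay 0.014 ± 0.076 from clone A1 (edgeR adjusted p = 0.941). EEF1A1, the near-identical ubiquitous paralog, held 17527, 16373, 13934 and 13870 CPM in WT, 16581, 16583, 12460 and 12504 CPM in clone A1 and 12168 and 12243 CPM in clone A2. Its log2 difference between clone A1 and WT was −0.03 in experiments 10 and 11 and −0.16 in experiments 15 and 16, and it passed the test in no comparison. Reads that fit both genes could be split between them by the counting, and since EEF1A1 was so much more abundant, the EEF1A2 counts are uncertain to that extent.

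C6orf132, the gene without a known process, had the deepest fall. WT held 2.39, 2.41, 3.35 and 3.70 CPM, from 110, 118, 133 and 190 reads. Clone A1 held 0.124 and 0.131 CPM in experiments 10 and 11, 6 reads in each library, and 4.39 and 4.08 CPM (192 and 178 reads) in experiments 15 and 16. Clone A2 held 4.15 and 4.14 CPM (185 and 212 reads). In experiments 10 and 11 clone A1 was thus at 5.32% of the WT mean, a count ratio of 0.0531 (95% exact interval 0.0271 to 0.0947), and in experiments 15 and 16 at 120.1%. Among all 13920 genes C6orf132 ranked 1 both for the lowest log2 difference of clone A1 from WT in experiments 10 and 11 (−3.84) and for the rise of that difference between the pairs (4.10). The log2 fold change of clone A2 was 0.23 ± 0.15 against WT (SE, edgeR adjusted p = 0.329) and −0.034 ± 0.15 against clone A1 (edgeR adjusted p = 0.930), and neither passed the test.

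**Figure D2:**
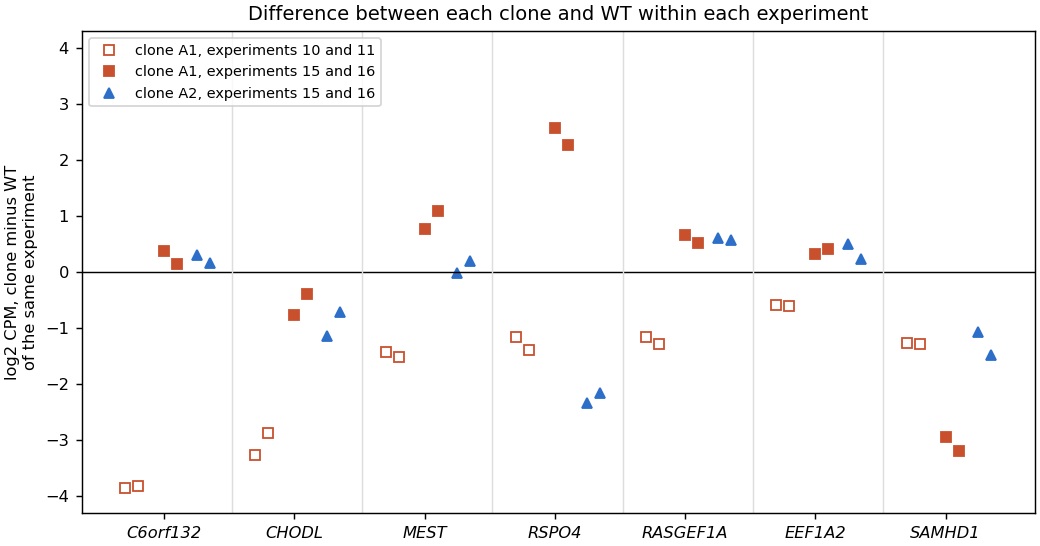
Difference in log2 CPM between each clone and the WT library of the same experiment for the 6 genes and SAMHD1, with open squares for clone A1 in experiments 10 and 11, filled squares for clone A1 in experiments 15 and 16, and triangles for clone A2. Open squares lie between −3.86 and −0.59 in the 6 genes, and the triangles lie near the filled squares in C6orf132, CHODL, RASGEF1A and EEF1A2. They lie away from them in RSPO4 (−2.34 and −2.15 against 2.57 and 2.27), MEST (−0.02 and 0.19 against 0.77 and 1.09) and SAMHD1 (−1.08 and −1.48 against −2.94 and −3.19).

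The depth of the fall in experiments 10 and 11 was graded over the 6 genes. By the log2 difference of clone A1 from WT, C6orf132 (−3.84) and CHODL (−3.07) ranked 1 and 2 of 13920 genes, MEST (−1.46), RSPO4 (−1.27) and RASGEF1A (−1.22) ranked 14, 24 and 30, and EEF1A2 (−0.60) ranked 283. MEST, RSPO4 and RASGEF1A had neighbouring values, and with 3 to 13 reads per library for MEST and 2 to 11 for RSPO4 their order is within counting error. These values and ranks depend on the prior count of 2. With a prior count of 0.5 the differences were −1.82 in MEST, −1.63 in RSPO4 and −1.23 in RASGEF1A. All 6 genes had a mean count of at least 10 over the 10 libraries, but MEST and RSPO4 did not in experiments 10 and 11 alone. Against the 12 genes called lower in clone A1 in experiments 10 and 11 (0.0862% of all genes), 4 of the 6 were among them, a count that the choice of the genes fixed. Per kilobase of exon, mean WT levels were 22.3 CPM for EEF1A2, 2.05 for CHODL, 1.63 for RASGEF1A, 0.183 for C6orf132, 0.112 for RSPO4 and 0.0781 for MEST, so the genes spanned a wide range of abundance. The ranges of these levels over the 4 WT libraries overlapped between CHODL and RASGEF1A, between C6orf132 and RSPO4 and between RSPO4 and MEST.

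The change of clone A1 against WT was set against the shift of WT itself between the pairs of experiments. On the log2 scale WT of experiments 15 and 16 lay above WT of experiments 10 and 11 by 1.25 in RASGEF1A, 0.86 in MEST, 0.83 in RSPO4 and 0.55 in C6orf132, with differences of 0.031 in CHODL and −0.016 in EEF1A2. For clone A1 the same difference was 4.65 in C6orf132, 4.52 in RSPO4, 3.25 in MEST, 3.05 in RASGEF1A, 2.52 in CHODL and 0.95 in EEF1A2. That the difference was larger in clone A1 than in WT in each gene was fixed by the choice of the genes and is no finding. The experiment pair and whatever differed between the clone A1 cultures of the pairs, among them the level of SAMHD1 given above, cannot be told apart.

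Clone A2, sequenced only in experiments 15 and 16, was set against clone A1 of the same experiments. In edgeR's test over all genes 1 of the 6 genes passed the threshold, RSPO4, which was lower in clone A2 (6.16% of all genes were called, 4.16% lower and 2.00% higher). The clone A1 libraries of this test were used in choosing the genes for an absent or reversed fall, which favours a lower value in clone A2, so the result is not independent of the choice. The other 5 did not pass, with log2 fold changes from −0.89 in MEST to 0.014 in EEF1A2. A missed threshold does not show that the clones were alike. For SAMHD1 the log2 fold change of clone A2 against clone A1 was 1.79 ± 0.10 (SE, edgeR adjusted p = 5.08e-08).

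The profiles of the 6 genes over the 10 libraries were compared as a description, with no test, since the libraries share clones, experiments and the values that chose the genes. Pearson correlations of log2 CPM between pairs of the 6 (n = 10 libraries) ran from 0.44 for RSPO4 and EEF1A2 to 0.95 for MEST and RASGEF1A, and the 4 lowest all involved RSPO4. Among genes with a mean of at least 1 CPM, those most like C6orf132 were FBXO27 (0.96), CSRP1 (0.96) and VWA1 (0.95), and those most like CHODL were C1R (0.95), VWA5A (0.91) and C6orf132 itself (0.90). MEST was closest to PNMA8B, RGS3 and GPAT3 (0.98 each), and RASGEF1A to ZNF285, SMPDL3B and HES5 (0.99 each). RSPO4 was closest to XBP1 (0.97), ZNF253 (0.96) and USP18 (0.96), and EEF1A2 to KRABD3 (0.97), TTI2 (0.96) and JAG2 (0.96). The mean profile of the 6 was most like RWDD2B (0.98), PNMA8B (0.97), NUDT8 (0.96), SLC2A10 (0.95) and ANXA3 (0.95).

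The genes beside the 6 along the chromosomes were examined next. For each gene the 5 nearest listed genes on either side were taken, 60 in all. In clone A1 against WT of experiments 10 and 11, 0 of the 60 passed edgeR's threshold, which 0.0862% of all genes passed, so that the count says little, with 4 at unadjusted p under 0.05 (FAM110A, ZNF487, ARFGAP1 and HELZ2; 963 of all 13920 genes) and 0 called by DESeq2 (23 of all genes), and their log2 fold changes ran from −0.49 to 0.62 with a median of 0.017. Flanking genes lay as close as TAF8, 13.7 kb from C6orf132, and CSGALNACT2, 9.23 kb from RASGEF1A. CHODL lies at the edge of a stretch with few listed genes, and its next listed neighbour on one side, MRPL39, was 7318 kb away. COPG2, which overlaps MEST, was not called in any comparison, with a log2 fold change of 0.055 in clone A2 against WT.

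**Figure D3:**
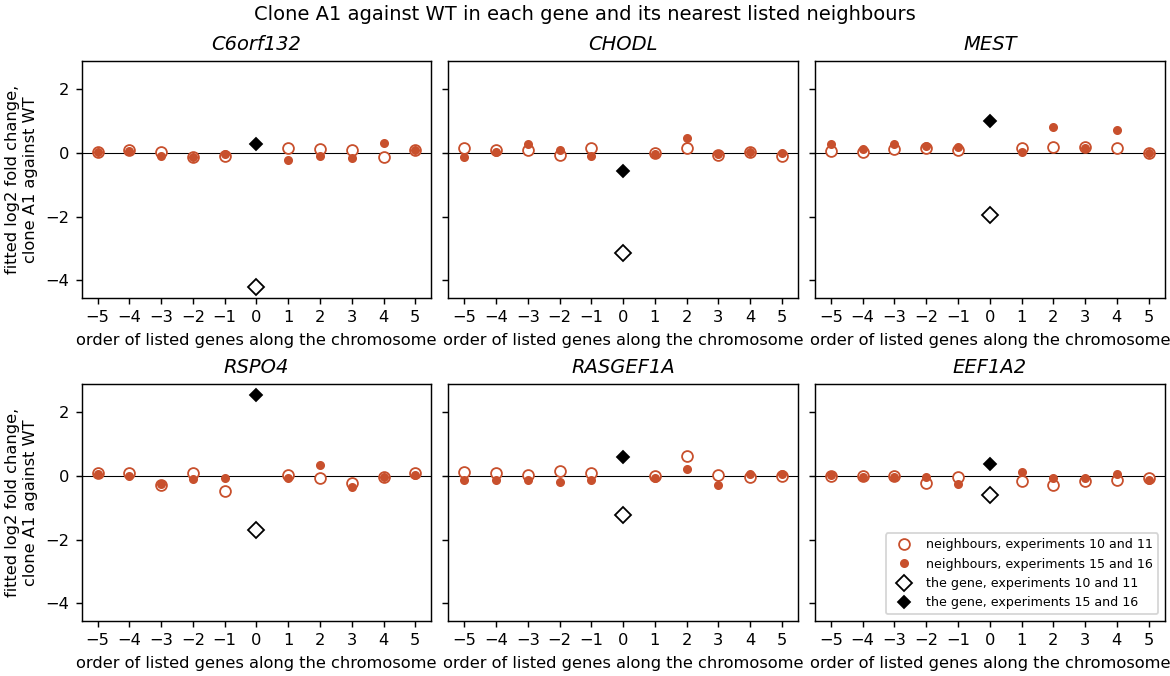
Fitted log2 fold change of clone A1 against WT for each gene (diamonds) and its 5 nearest listed neighbours on either side (circles), open for experiments 10 and 11 and filled for experiments 15 and 16, in chromosomal order. Neighbours stay between −0.49 and 0.62 in experiments 10 and 11, while the 6 genes lie below them.

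In clone A2 against WT, 10 of the 60 neighbours were called higher and 2 lower (9.75% and 11.4% of all genes), among them ZNF33B beside RASGEF1A, and 6 of the 10 lay beside MEST. They were UBE2H (0.27), ZC3HC1 (0.49), KLHDC10 (0.24), TMEM209 (0.34), CEP41 (0.25) and PODXL (0.52), all as log2 fold changes, whereas MEST itself was not called. Beside EEF1A2, which was higher in clone A2, ARFGAP1 (0.25) and PPDPF (0.27) were higher. In the difference of the clone A1 effect between the pairs of experiments 1 neighbour passed (1.91% of all genes did, 1.26% upward and 0.654% downward), PODXL, with 0.58 ± 0.12 (SE, edgeR adjusted p = 0.0239).

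Genes of the same pathways and families were taken from 5 lists. In all, 159 of 202 genes were in the table, and in clone A1 against WT of experiments 10 and 11 edgeR called 0 of them (0.0862% of all genes, too few to set 0 apart), with 11 at unadjusted p under 0.05 (963 of all 13920 genes) and 1, the imprinted gene L3MBTL1, called by DESeq2 (23 of all genes). Their median log2 fold change was 0.0073, beside −0.00037 over all genes. In experiments 15 and 16, 21 were higher and 12 lower in clone A2 than in WT (9.75% and 11.4% of all genes), and 15 were higher and 10 lower in clone A1 than in WT (6.44% and 6.74% of all genes). The counts called in clone A2 in each list below are to be read against the same 9.75% higher and 11.4% lower, and none is called particular to its list.

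Of the R-spondin and Wnt receptor genes 43 of 48 were listed, and 4 were higher and 3 lower in clone A2 than in WT, beside 9.75% and 11.4% of all genes. WNT3A, a Wnt ligand, was lower, with a log2 fold change of −1.86 ± 0.31 (SE, edgeR adjusted p = 5.73e-04), ZNRF3, the ligase that R-spondins hold back, likewise with −0.45 ± 0.08 (edgeR adjusted p = 9.45e-04) and the receptor FZD1 with −0.39 ± 0.07 (edgeR adjusted p = 0.00124), while the receptor FZD9 was higher by 0.38 ± 0.12 (edgeR adjusted p = 0.0325). ZNRF3 was also called lower in clone A2 than in clone A1. It was the 1 gene of the 43 called there, where 4.16% of all genes were called lower, so the count is not particular to the list. The sister genes of RSPO4 passed no test. RSPO2 lay at 1.61 to 3.26 CPM over all libraries, RSPO3 had a log2 fold change of 1.07 ± 0.41 in clone A1 of experiments 10 and 11, which missed the threshold (edgeR adjusted p = 0.694), and RSPO1 was not listed.

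C-type lectin and related genes were listed for 16 of 31, with 3 higher and 2 lower in clone A2, beside 9.75% and 11.4% of all genes. CLEC16A, a regulator of mitophagy, was higher by 0.51 ± 0.08 (SE, edgeR adjusted p = 2.33e-04) and CLEC11A, a secreted growth factor, lower with −0.48 ± 0.15 (edgeR adjusted p = 0.0363), followed by the collagen receptor MRC2 (0.33) and the matrix proteoglycan VCAN (−0.31). For the difference of the clone A1 effect between the pairs of experiments, which 1.91% of all genes passed, edgeR called 1 gene of the 5 lists, CLEC16A, with 0.64 on the log2 scale. DESeq2 called 3, CLEC16A, MRC2 and CDKN1C. LAYN, the closest relative of CHODL, lay at 9.20 to 12.6 CPM in all libraries and passed no test.

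Of the imprinted genes 23 of 43 were listed, with 6 higher and 2 lower in clone A2, beside 9.75% and 11.4% of all genes. TFPI2 (0.69), KCNQ1 (0.42) and ZDBF2 (0.36) were higher and PEG10 (−0.42) lower on the log2 scale, and in experiments 10 and 11 the largest difference in clone A1, 0.58 ± 0.12 in L3MBTL1, missed the threshold (edgeR adjusted p = 0.173). Ras and Rap exchange factors and their partners were listed for 47 of 50, with 4 higher and 2 lower in clone A2 (the same shares of all genes apply), among them RAPGEF1 (0.48), RALGDS (0.40), RAPGEFL1 (−0.34) and RAPGEF3 (−0.90). RASGEF1B, a sister gene of RASGEF1A, was higher in clone A1 of experiments 15 and 16 by 0.63 (edgeR adjusted p = 0.0140), and RASGEF1C was not called in any comparison. All 30 translation elongation genes were listed, with 4 higher and 3 lower in clone A2 (against 9.75% and 11.4%), among them EEF2KMT (0.41), DPH7 (0.35), GSPT1 (0.30) and EEF2 (−0.26), the factor that moves the ribosome along the mRNA.

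**Figure D4:**
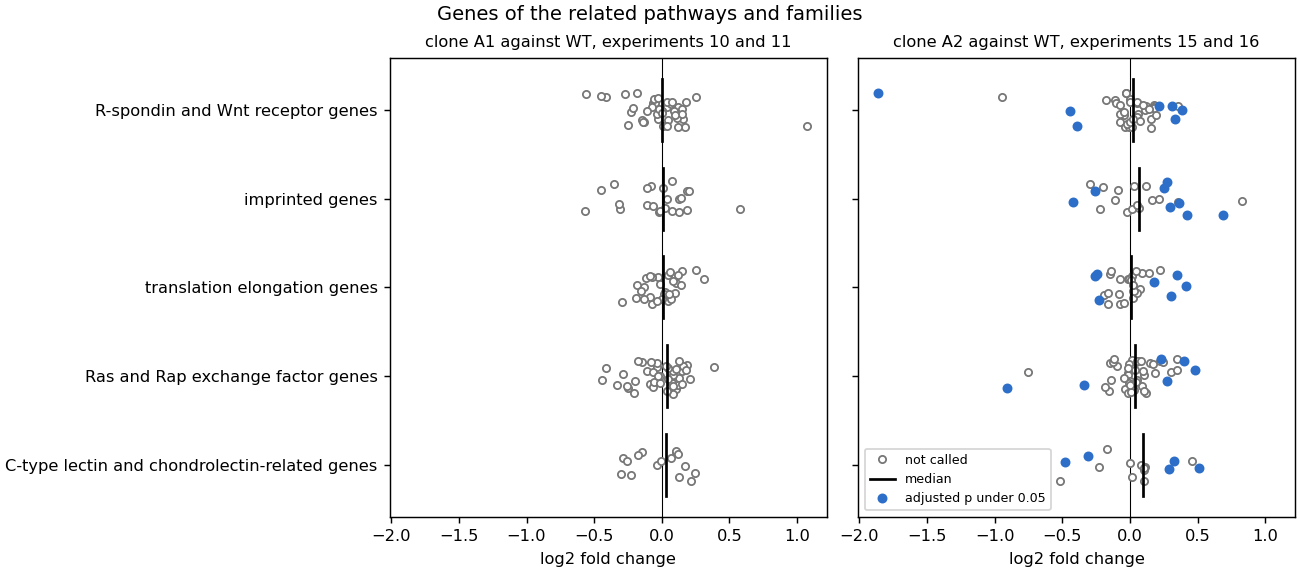
Log2 fold changes of the listed genes of 5 pathway and family lists, without the 6 genes themselves, in clone A1 against WT of experiments 10 and 11 (left) and in clone A2 against WT of experiments 15 and 16 (right), with filled points for edgeR adjusted p under 0.05 and a bar at each list's median. No point is filled on the left, and on the right filled points lie on both sides of 0, with WNT3A at −1.86 farthest from it.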

How the data were processed

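RNA of 10 spheroid samples labelled T47D was sequenced as stranded mRNA libraries. The authors aligned reads to GRCh38 with HISAT2 (the labels also list StringTie) and the NCBI annotation, and removed genes with a count of 0 in any library; the counting program and its strand setting are not given in the sources used here. The file they deposited lists 13920 genes with whole, unnormalized counts of reads. The labels and the methods name different RNA kits. Of the genes, 13885 had a symbol in the NCBI table and 35 were kept by identifier.

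The main test was that of edgeR 4.0.16 under R 4.3.3 (TMM, robust quasi-likelihood test, Benjamini-Hochberg adjustment over all genes, threshold 0.05), in separate fits for experiments 10 and 11 (4 libraries), experiments 15 and 16 (6 libraries) and the clone A1 effect between the pairs (8 libraries). Log2 CPM used a prior count of 2, and exon lengths came from GENCODE. The SE of a fold change was back-computed as the absolute log2 fold change over the square root of the quasi-likelihood F statistic. It is therefore approximate, most of all for genes with few reads. Alternatives were DESeq2 1.42.0, RLE, filterByExpr, the experiment number as a block, a minimum mean count of 10, 1 fit of 10 libraries, a prior count of 0.5 and each library left out. The genes and lists were chosen with earlier results of these data known. Named were the 6 genes, SAMHD1, close paralogs, the 3 genes most alike in profile for each and 5 for their mean, called or flanking neighbours, and up to 4 genes of each list with the largest called change in clone A2 against WT, or else the largest uncalled one. The printed promoters, VIM and other marker values and the list genes called between the experiment pairs or by DESeq2 were picked after their values were seen. On simulated counts of 13920 genes with 200 changed, edgeR recovered 200 for clone A2 against WT (7 false calls), 199 for clone A2 against clone A1 (14), 198 for clone A1 in experiments 10 and 11 (9) and 196 in experiments 15 and 16 (7), both against WT, and 184 for the difference (5). The changed genes were drawn from those with a mean above 1 CPM and changed 2-fold or 4-fold. Every simulated gene had the same dispersion, with no effect of the experiment. The recovery therefore does not cover genes as low as MEST and RSPO4 or the spread of the real libraries. A marker and a neighbouring gene are not reported here. Each of the 45 pairs of libraries differed by more than counting noise.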

Additional observations from a re-analysis of the deposited data

Results flagged for a closer look

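In 5 of the 6 genes both clone A1 libraries lay below WT in experiments 10 and 11 and both lay above it in experiments 15 and 16, an order seen in 4.66% of all genes. The log2 difference between clone A1 and WT rose between the pairs by 4.10 in C6orf132, 3.69 in RSPO4, 2.39 in MEST, 1.81 in RASGEF1A and 0.96 in EEF1A2. The genes were chosen for this pattern, so the difference was not tested. RSPO4 was also picked out because clones A1 and A2 lay on opposite sides of WT in experiments 15 and 16, with a log2 fold change of −5.44 between clone A2 and clone A1. The clone A1 values were part of the choice, so this is no independent support. It rests on 2 of 2 clone A2 libraries lying below and 2 of 2 clone A1 libraries lying above both WT libraries.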

How the results depend on the processing

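For the 6 genes, the 4 calls of clone A2 against WT and the call of RSPO4 against clone A1 held under every alternative run, with edgeR or DESeq2 adjusted p from 3.63e-05 to 0.00550 in CHODL, 8.45e-04 to 0.0160 in RSPO4, 2.69e-06 to 0.00254 in RASGEF1A and 1.25e-04 to 0.0386 in EEF1A2, and 2.34e-11 to 4.38e-05 for RSPO4 against clone A1. Log2 fold changes near 0 that passed no test changed sign when 1 library was left out. MEST in clone A2 against WT ranged from −0.072 (without clone A2 of experiment 16) to 0.24. Clone A2 against clone A1 ranged from −0.086 to 0.020 in C6orf132, −0.088 to 0.082 in RASGEF1A and −0.12 to 0.14 in EEF1A2, with the sign turned without clone A1 of experiment 15 in C6orf132 (0.020), RASGEF1A (0.082) and EEF1A2 (−0.034), without clone A2 of experiment 16 in RASGEF1A (0.026) and without clone A2 of experiment 15 in EEF1A2 (−0.12). A prior count of 0.5 gave −4.12 for C6orf132, −1.82 for MEST and −1.63 for RSPO4 in clone A1 minus WT of experiments 10 and 11.

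Counts over all genes moved more. The labels give only an experiment number as a pairing, and same-numbered libraries correlated at 0.0844 to 0.151 after group and pair means were removed, with 2 numbers per fit. The replicate block moved the counts from 2948 to 4511 (clone A2 against WT), 858 to 1947 (clone A2 against clone A1), 12 to 229 (clone A1 against WT, experiments 10 and 11), 1834 to 3237 (experiments 15 and 16) and 266 to 1081 (the difference between pairs), and changed no call of the 6 genes in clone A2. DESeq2 gave 23 in experiments 10 and 11 and 409 for the difference, and 1 fit of 10 libraries gave 27 in experiments 10 and 11 and 1147 in experiments 15 and 16. With each library left out in turn the counts spanned 1768 to 3205, 497 to 932, 19 to 3144, 920 to 1847 and 70 to 1163 in the order above, where the lone library left in a group is assumed to vary like the others. In experiments 10 and 11 each of the 4 libraries moved the count by over 1.5 times, to 3144 without WT of experiment 10, to 76 without WT of experiment 11, and to 19 and 37 without the clone A1 libraries of experiments 10 and 11. For clone A2 against WT the count fell to 1841 without WT of experiment 15 and to 1768 without clone A2 of experiment 16. For clone A2 against clone A1 it fell to 497 without clone A1 of experiment 15, and to 514 and 557 without clone A2 of experiments 15 and 16. In experiments 15 and 16 the count for clone A1 against WT fell to 920 and 1128 without the WT libraries of experiments 15 and 16 and to 1093 without clone A1 of experiment 15. The difference between pairs moved with each of its 8 libraries, to 1163 and 559 without WT of experiments 10 and 11, and to between 70 and 112 without any of the other 6. The causes were not tested. Depth limits MEST and RSPO4 most, at 2 to 13 reads per library in experiments 10 and 11.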
